A study of Mus musculus with 4 samples.

Results

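The genes described here encode the core of the machinery that releases transmitter from synaptic vesicles. They are Syt1, Snap25, Vamp2, Stx1a, Syn1, Syp, Cplx1 and Slc17a7, chosen by symbol as 8 of the 29300 genes in the deposited count table, and all 8 passed the filter on low counts. RNA came from the hippocampus of male C57BL/6 mice aged 7 to 8 months, taken on day 1 after the procedure. The 2 surgery mice received isoflurane, tramadol and an open tibial fracture with intramedullary nailing, and the 2 control (sham) mice received the same anesthesia and analgesia without a fracture. All comparisons are therefore of fracture surgery with anesthesia and analgesia alone, in 1 tissue at 1 time, and mice without anesthesia are not analysed here.

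A synaptic vesicle fuses with the presynaptic membrane when SNARE proteins on the 2 membranes zip together. Vamp2 (synaptobrevin) sits on the vesicle, Stx1a (syntaxin) and Snap25 on the plasma membrane, Cplx1 (complexin) holds and then assists the assembled complex, and Syt1 (synaptotagmin) is the calcium sensor that triggers fast release. Syn1 (synapsin) tethers vesicles in their reserve pool, Syp (synaptophysin) is an abundant vesicle membrane protein that binds Vamp2, and Slc17a7 (VGLUT1) fills vesicles with glutamate in the excitatory neurons of the hippocampus.

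In the surgery mice, 5 of the 8 transcripts were lower at an adjusted p under 0.05 and none was higher, and the levels of Syt1 and Snap25 overlapped between the groups. The 5 were Syp, Stx1a, Slc17a7, Cplx1 and Syn1, whose fitted changes ran from -29.7% for Syp to -22.5% for Syn1. Across all 17144 genes tested, 12.8% were lower by the same rule and 13.1% were higher, 26% in either direction. Of the 8 genes, 0 were differentially expressed genes (DEGs), which need an adjusted p under 0.05 and a fold threshold. That threshold was a 1.5-fold rise, or a fall to 0.67 of the control level or less. Lower DEGs made up 2.25% of all genes and higher DEGs 6.75%. That is 386 lower and 1158 higher DEGs, and 224 and 1379 with scaling by library totals alone. The median log2 fold change was -0.37 over the 8 genes and 0.01 over all genes tested. The calls depended on a correction for transcript composition. After a correction of each library for transcript length and GC content, in the design without a replicate block, 1 of the 8 genes was lower when all annotated transcripts were used and 0 when only protein-coding transcripts were used, a version chosen after the first had been seen. In bulk tissue, fewer cells of a type and less RNA per cell cannot be told apart.

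The sequences just upstream of 3 of the 5 genes that fell are shown as examples, Syn1 for its several motifs and Stx1a and Slc17a7 for GC boxes, which Cplx1 also has. RefSeq windows (build GRCm38.p6) from 250 bases before to 50 after a transcription start were at hand for 6 of the 8 genes, all but Snap25 and Vamp2, with 2 windows for Syt1. Capitals mark motif matches on either strand, and bases inside the annotated gene are left out. Syn1 is given from the minus strand, chrX:20921005-20921168, and Stx1a and Slc17a7 from the plus strand, chr5:135023232-135023481 and chr7:45163671-45163920.
Syn1: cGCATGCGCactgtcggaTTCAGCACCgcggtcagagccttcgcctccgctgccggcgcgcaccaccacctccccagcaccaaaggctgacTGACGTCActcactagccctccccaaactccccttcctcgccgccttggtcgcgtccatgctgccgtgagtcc
Stx1a: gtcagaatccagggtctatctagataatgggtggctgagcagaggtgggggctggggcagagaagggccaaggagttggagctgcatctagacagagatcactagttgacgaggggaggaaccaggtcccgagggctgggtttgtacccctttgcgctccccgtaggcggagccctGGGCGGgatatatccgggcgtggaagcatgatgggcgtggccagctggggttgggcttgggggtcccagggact
Slc17a7: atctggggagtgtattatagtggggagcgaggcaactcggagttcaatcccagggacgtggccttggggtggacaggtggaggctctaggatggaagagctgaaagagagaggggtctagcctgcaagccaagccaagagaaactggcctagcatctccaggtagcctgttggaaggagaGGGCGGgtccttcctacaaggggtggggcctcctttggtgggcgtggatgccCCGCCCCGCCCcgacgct

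The Syn1 sequence held the short NRF-1 core GCATGCGC, the letters TTCAGCACC from the left end of the RE1 element read by the neuronal repressor REST, and the cAMP response element TGACGTCA. These were present in 2.71%, 0.371% and 1.79% of all 32851 windows. The longer NRF-1 motif was present in 4.6% of windows and among these genes in Syp alone, as GCGCAGGCGC, 29 to 20 bases before the RefSeq start. This match and the GC boxes of Syp lie inside the gene as GENCODE M21 annotates it, whose start is further upstream. The GC box GGGCGG, a site for Sp1, was found in 35.7% of windows and in those of Syt1, Stx1a, Syp, Cplx1 and Slc17a7, and in Slc17a7 a pair of its matches overlapped by 1 base. The TATA box letters TATAAA were in 13.6% of windows and in none of these. The GC box was in 5 of the 7 windows, in genes that fell and in Syt1, whose groups overlapped, and not in Syn1, which fell. A link of the motif with the changes was not tested. The motifs were picked with results of these data known, and a match is a match of letters only.

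Among the SNARE proteins, Stx1a had the clearest fall. The control mice had 125 and 128 CPM (counts scaled to a common library size, after TMM) and the surgery mice 88.9 and 92.4 CPM. Both surgery mice lay below both control mice, and the log2 fold change was -0.48 ± 0.06 (SE, edgeR quasi-likelihood test, adjusted p = 0.0053). Its partner on the plasma membrane, Snap25, was at 1826 and 1713 CPM in the control mice and at 1852 and 1706 CPM in the surgery mice. These ranges overlapped, with a log2 fold change of 0.01 ± 0.07 (edgeR, adjusted p = 0.95). Vamp2, the vesicle partner of both, was at 1015 and 1082 CPM in the control mice and at 895 and 951 CPM in the surgery mice. The Vamp2 groups did not overlap, but the log2 fold change of -0.18 ± 0.06 missed the threshold (edgeR, adjusted p = 0.081). DESeq2 placed it past the threshold, with an adjusted p of 0.027.

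Cplx1 and Syt1 act on the assembled SNARE complex. Cplx1 was at 665 and 683 CPM in the control mice and at 511 and 522 CPM in the surgery mice. Both surgery mice were lower, with a log2 fold change of -0.38 ± 0.05 (edgeR, adjusted p = 0.0063). Syt1 was at 1474 and 1445 CPM in the control mice and at 1469 and 1500 CPM in the surgery mice. One surgery mouse fell between the control mice and the other lay above them, and the log2 fold change was 0.02 ± 0.06 (edgeR, adjusted p = 0.78). The difference between the changes of Cplx1 and Syt1 was not tested, and its direction turned with the correction for length and GC content over all annotated transcripts, to -0.15 for Cplx1 and -0.31 for Syt1.

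Syp, Syn1 and Slc17a7, which encode other vesicle proteins, were each lower. Syp was at 807 and 810 CPM in the control mice and at 581 and 556 CPM in the surgery mice. The control mice were nearly alike and both surgery mice were far below them, with a log2 fold change of -0.51 ± 0.06 (edgeR, adjusted p = 0.0045). Of the exon sequence of Syp, 16.8% is overlapped on the opposite strand by Gm14703, and the use of strand in the counting is not given in the sources used here, so that a share of its reads is uncertain. Syn1 was at 730 and 715 CPM in the control mice and at 570 and 551 CPM in the surgery mice, again without overlap. Its log2 fold change was -0.37 ± 0.06 (edgeR, adjusted p = 0.0069). Slc17a7, the glutamate transporter, was at 1708 and 1669 CPM in the control mice and at 1303 and 1283 CPM in the surgery mice. This was the largest fall in CPM of the 8 genes, with a log2 fold change of -0.39 ± 0.06 (edgeR, adjusted p = 0.0064). In all, 6 of the 8 genes had both surgery mice below both control mice, a pattern seen in 32.2% of all genes tested. None had both surgery mice above both control mice, which 33.2% of all genes had.

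**Figure D1:**
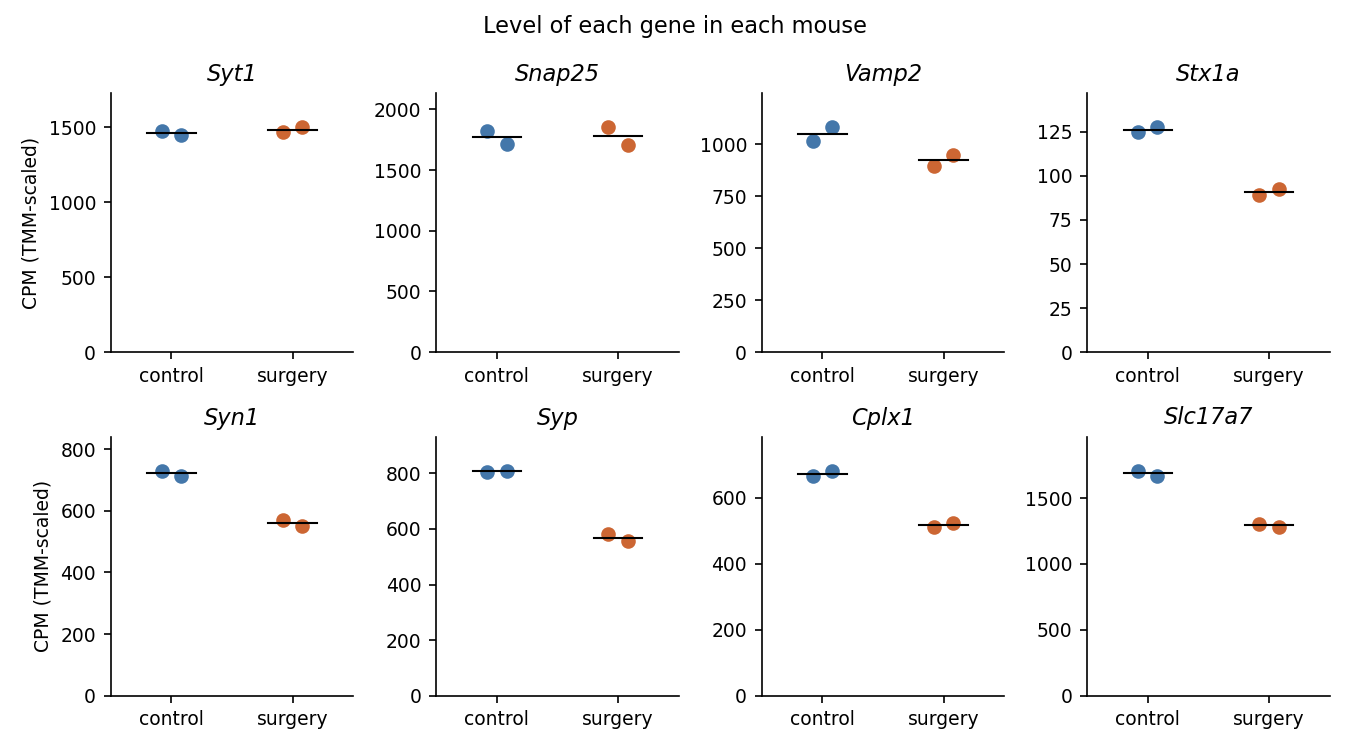
Level of each of the 8 genes in each mouse, in CPM after TMM scaling on an axis that starts at 0, with 1 point per mouse and a line at the mean of the 2 mice of a group. The points of the groups overlap for Syt1 and Snap25 and are separate for the other 6 genes, with the surgery mice lower.

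Summed over the 8 genes, the control mice had 8350 and 8245 CPM and the surgery mice 7271 and 7161 CPM. Within the sum, Snap25 took 21.9% and 20.8% in control against 25.5% and 23.8% in surgery mice, while that of Syp was 9.66% and 9.82% against 8.0% and 7.76%. Ratios taken inside a library do not depend on how libraries are scaled. Reads on Stx1a per read on Snap25 numbered 0.0685 and 0.0745 in control mice against 0.0480 and 0.0541 in surgery mice. For Syp per Snap25 the values were 0.442 and 0.473 against 0.314 and 0.326. Cplx1 per Syt1 gave 0.451 and 0.472 in control and 0.348 in both surgery mice. The groups were separate in these 3 ratios. Vamp2 per Snap25 overlapped, at 0.556 and 0.632 against 0.483 and 0.557. These ratios are of raw counts and take no account of transcript composition. After the correction over all annotated transcripts Stx1a and Syp were at log2 fold changes of -0.21 and -0.43 beside -0.49 for Snap25, and Cplx1 was at -0.15 beside -0.31 for Syt1. Over coding transcripts Stx1a and Syp were at -0.20 and -0.28 beside -0.23 for Snap25, and Cplx1 was at -0.15 beside -0.24 for Syt1. The ratio of Snap25 to Syt1 overlapped, at 1.24 and 1.19 against 1.26 and 1.14. With 2 mice a group, an exact permutation test of such a ratio cannot go below p = 0.333.

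Levels between genes were compared per kb of exon. With the exons of protein-coding transcripts, Snap25 was highest at a mean of 794 CPM per kb over the 4 mice, followed by Slc17a7 at 499, Vamp2 at 349, Syt1 at 305, Cplx1 at 272, Syp at 256, Syn1 at 194 and Stx1a at 50.2 CPM per kb. The range of Snap25 stood clear of that of Slc17a7, and Slc17a7 of Vamp2. Vamp2, at 316 to 383 CPM per kb, stood above Syt1, at 299 to 311, while the ranges of Syt1 and Cplx1, of Cplx1 and Syp, and of Syp and Syn1 overlapped. These ranges pool both groups, and within each group Cplx1 lay above Syp and Syp above Syn1, while Syt1 lay clear of Cplx1 in surgery mice only. Stx1a, at 41.1 to 59.0 CPM per kb, was the least abundant. The order depended on which transcripts gave the length. With all annotated transcripts, which for Snap25 add up to 6791 nt of exon rather than 2234 nt, Slc17a7 had the highest mean at 277 CPM per kb, and its range overlapped those of Cplx1, Snap25 and Vamp2. There the order differed by group, with Slc17a7 at 317 and 310 CPM per kb above Snap25 at 269 and 252 in control mice, and at 242 and 238 below Snap25 at 273 and 251 in surgery mice.

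The 8 genes differ in composition. Over all annotated transcripts, GC content was 41.5% for Snap25 and 44.1% for Syt1, 52.0% for Syp, and from 56.6% to 58.2% for Slc17a7, Cplx1, Vamp2, Syn1 and Stx1a. The GC-poor pair is thus the pair whose groups overlapped. Among the other 6, the order depended on the transcripts used, with Syp lowest in GC content over all annotated transcripts and Vamp2, at 54.6%, lowest over coding transcripts, where Syp was at 56.8%. Over the 8 genes, Spearman's rho between GC content and log2 fold change was -0.40, and 0.71 after the correction. Over coding transcripts these values were -0.79 and 0.36. In 1 complete coding transcript of each gene, the coding part had a GC content of 51.1% in Snap25 and 49.9% in Syt1 and from 55.8% to 60.5% in the other 6. The sequence after the stop codon was the poorest in GC in Snap25, at 37.3%, and in Syt1, at 41.4%. Across 17120 genes with a GC content, Spearman's rho between GC content and log2 fold change was -0.64, and across the 8 genes and 113 tested genes of wider presynaptic lists it was -0.76. These genes share the same 4 libraries, so both are descriptions. Among the 121 presynaptic genes, the 60 of lower GC content had 6 lower and 14 higher transcripts, and the 61 of higher GC content had 41 lower and 0 higher by edgeR. In the same split of all genes, the 8560 of lower GC content had 161 lower and 2160 higher, and the 8560 of higher GC content had 2037 lower and 85 higher.

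**Figure D2:**
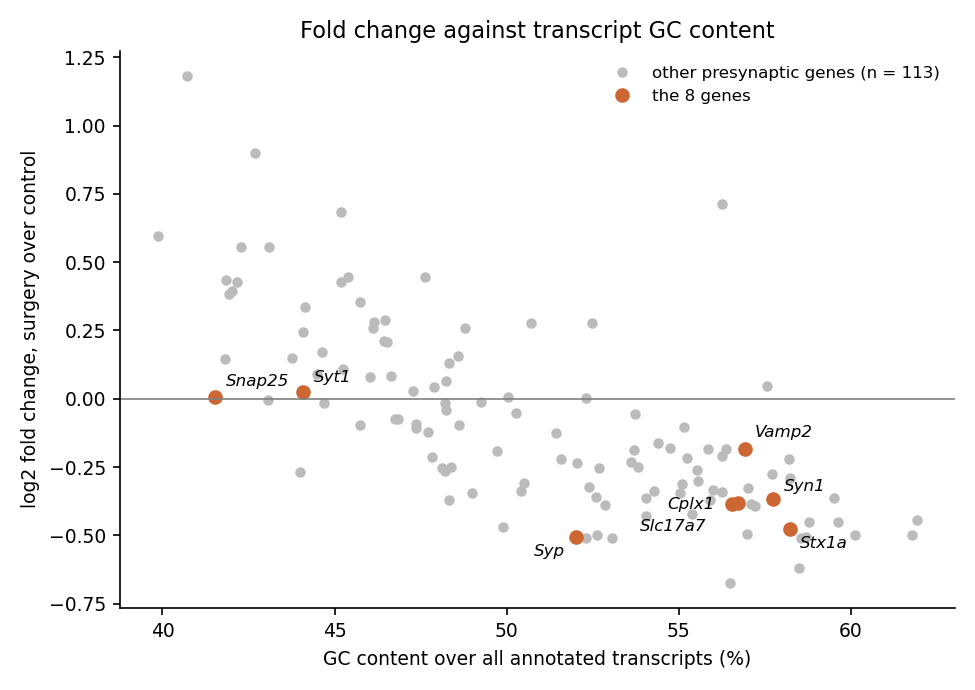
Log2 fold change (surgery over control) against GC content over all annotated transcripts in percent, with 1 point per gene for the 8 genes (orange, named) and 113 other presynaptic genes (grey). Points fall from left to right, with Snap25 at 41.5% and Syt1 at 44.1% near 0 and Stx1a at 58.2% at -0.48.

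With the trends of length and GC content removed from each library, the order of the 8 genes changed. Over all annotated transcripts, the log2 fold change of Snap25 went from 0.01 to -0.49 (edgeR, adjusted p = 0.0505) and that of Syt1 from 0.02 to -0.31 (edgeR, adjusted p = 0.065), while Vamp2 went to 0.05 (edgeR, adjusted p = 0.68). Syp kept its call at -0.43 (edgeR, adjusted p = 0.041). Stx1a was at -0.21, Slc17a7 at -0.16, Cplx1 at -0.15 and Syn1 at -0.11, and these 4 no longer passed. Over protein-coding transcripts alone, which leave out exon sequence of a further Snap25 transcript, Snap25 was at -0.23, Syt1 at -0.24 and Vamp2 at -0.02. There Syp was at -0.28 and lost its call (edgeR, adjusted p = 0.092), and all 8 values were below 0 with a median of -0.17. Over all genes, 9386 of 17120 values were below 0 by that correction, with a median of -0.03. By the correction over all annotated transcripts, 1.1% of all genes were lower and 0.59% higher at an adjusted p under 0.05, and over coding transcripts 0.812% were lower and 0.567% higher. In the design without a replicate block, the falls of Stx1a, Slc17a7, Cplx1 and Syn1 were thus not called by either correction. In that design the call of Syp depended on the transcripts used. The calls differed with the block, as given in the section on processing. The part of RNA composition in these differences was not tested further.

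**Figure D3:**
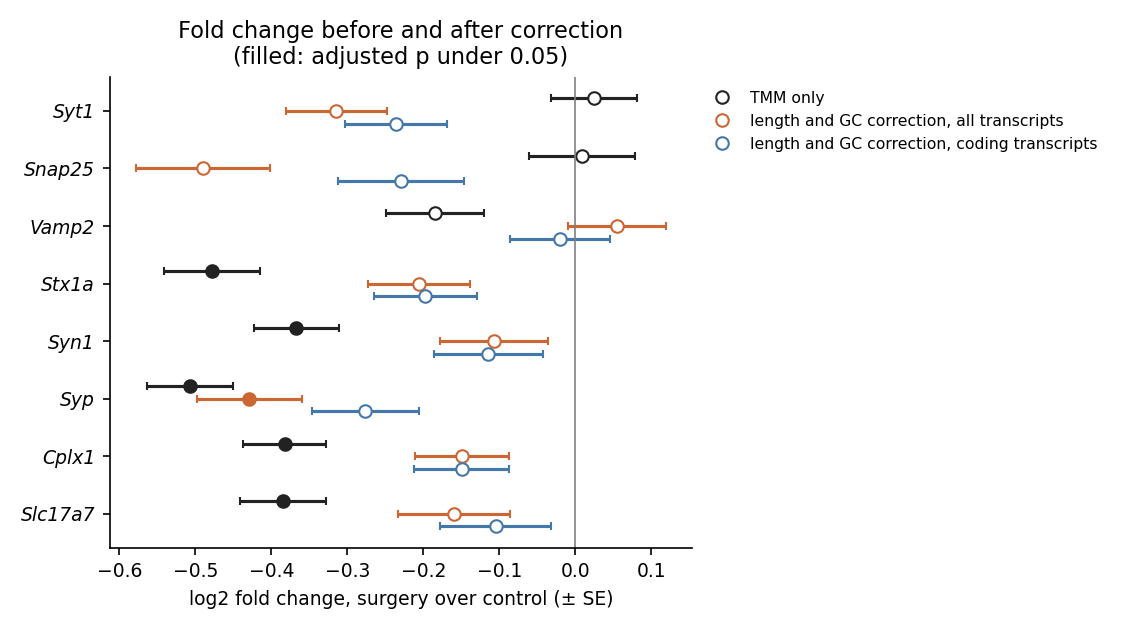
Log2 fold change of each gene (surgery over control, bars ± SE) with TMM scaling only (black) and after correction for transcript length and GC content over all annotated (orange) or protein-coding (blue) transcripts, filled where the adjusted p is under 0.05. There are 5 filled points with TMM only, 1 over all annotated transcripts (Syp, -0.43) and 0 over coding transcripts.

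The other genes of the release machinery were taken from 7 lists by role, with 116 genes beyond the 8. Of these 113 were tested, and Vamp7 was not analysed here. By edgeR 42 were lower and 14 were higher, with a median log2 fold change of -0.16, and 57 did not pass. That is 37.2% lower and 12.4% higher, beside 12.8% and 13.1% of all genes tested. After the correction for length and GC content, 5 were lower and 1 was higher over all annotated transcripts, and 3 and 1 over coding transcripts. The DEGs among them were Ap2s1 and Ap2a1, lower, and Syt4, Snap23 and Sypl, higher. Of the genes named from these lists, Syt4 and Vamp1 passed after both corrections and Ap2s1 over all annotated transcripts alone, and the corrected log2 fold changes given beside the others are those over all annotated transcripts.

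Among the synaptotagmins and other calcium sensors, 7 of 15 genes beyond Syt1 were lower and 1 was higher. Syt4, a synaptotagmin that lacks the usual calcium binding and is induced by activity, was at 45.8 and 42.7 CPM in the control mice and at 97.1 and 104 CPM in the surgery mice. This was the largest rise in the lists, with a log2 fold change of 1.18 ± 0.08 (edgeR, adjusted p = 0.0039), and it was also called after correction over all annotated (0.62) and over coding transcripts (0.62). Syt2, the fast sensor of inhibitory and hindbrain synapses, had the largest fall, at -0.51 ± 0.09 (edgeR, adjusted p = 0.010), and was at -0.42 after correction. Syt7, a slower sensor, was lower at -0.22 ± 0.06 (edgeR, adjusted p = 0.031), and its sign turned after correction, to 0.05.

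Of 14 SNARE genes beyond Snap25, Vamp2 and Stx1a, 4 were lower and 4 were higher. Vamp1, the relative of Vamp2, fell by 0.47 on the log2 scale (edgeR, adjusted p = 0.0049) and was also called after correction over all annotated (-0.49) and over coding transcripts (-0.40). Snap23, the broadly expressed relative of Snap25, rose from 12.8 and 11.4 CPM to 22.4 and 22.9 CPM, a log2 fold change of 0.90 ± 0.12 (edgeR, adjusted p = 0.0055). After correction it was at 0.48 and did not pass (edgeR, adjusted p = 0.087). Snap47 was lower at -0.32 ± 0.06 (edgeR, adjusted p = 0.012) and was at -0.23 after correction. Vamp3 was at 0.28 ± 0.11 and did not pass (edgeR, adjusted p = 0.12).

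Of 21 complexin and SNARE regulator genes beyond Cplx1, 5 were lower and 3 were higher. Sncb, which encodes beta-synuclein, had the largest fall at -0.45 ± 0.06 (edgeR, adjusted p = 0.0051), and was at -0.15 after correction. Stxbp6 (amisyn), which binds syntaxin, had the largest rise at 0.55 ± 0.09 (edgeR, adjusted p = 0.0087), and was at 0.16 after correction. Cplx2 and Cplx3 did not pass. Cplx2, with a mean of 272 CPM per kb of exon as for Cplx1, was at 1529 and 1320 CPM in the control mice and at 1291 and 1214 CPM in the surgery mice, at -0.19 ± 0.08 (edgeR, adjusted p = 0.15), and both surgery mice were below both control mice. Cplx3 was below 10 CPM in each mouse, at -0.06 ± 0.18 (edgeR, adjusted p = 0.85).

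Of 13 genes for synapsins and vesicle membrane proteins beyond Syn1 and Syp, 6 were lower and 3 were higher. Among them were 2 relatives of Syp. Sypl (synaptophysin-like), broadly expressed, rose from 32.3 and 32.6 CPM to 48.0 and 50.01 CPM, at 0.60 ± 0.08 (edgeR, adjusted p = 0.0055), and Synpr (synaptoporin), found on mossy fiber terminals, rose by 0.43 ± 0.08 (edgeR, adjusted p = 0.012). Both are GC-poor, at 39.9% and 41.8%, and after correction over all annotated transcripts they were at -0.03 and -0.04. Syn2 was lower at -0.22 ± 0.06 (edgeR, adjusted p = 0.033) and was at -0.16 after correction. Syn3 was at -0.34 ± 0.13 and did not pass (edgeR, adjusted p = 0.10). The vesicle protein Svop had the largest fall of this list, at -0.49 ± 0.07 (edgeR, adjusted p = 0.0068), and was at -0.25 after correction.

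Among the vesicular transmitter transporters beyond Slc17a7, 2 of 5 tested were lower and 0 were higher. Slc30a3 (ZnT3), which loads zinc into glutamate vesicles, was lower at -0.51 ± 0.07 (edgeR, adjusted p = 0.0051), and was at -0.23 after correction. Slc32a1, the GABA transporter of inhibitory neurons, was at 76.4 and 77.3 CPM in the control mice and at 59.8 and 53.3 CPM in the surgery mice, at -0.44 ± 0.08 (edgeR, adjusted p = 0.012), and was at -0.10 after correction. Its ratio to Slc17a7 overlapped between the groups, at 0.0447 and 0.0463 against 0.0459 and 0.0415. The other glutamate transporters did not pass, with Slc17a6 at 0.11 ± 0.10 (edgeR, adjusted p = 0.49) and Slc17a8 at 0.45 ± 0.20 (edgeR, adjusted p = 0.16).

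Of 20 active zone and Rab3 genes, 6 were lower and 0 were higher, with Bsn (bassoon), a scaffold of the active zone, lowest at -0.45 ± 0.07 (edgeR, adjusted p = 0.0087). After correction Bsn was at -0.15, and 0 of the 20 were called. Of 25 endocytosis genes, which recover the vesicle membrane after release, 12 were lower and 3 were higher. The subunits of the AP-2 clathrin adaptor Ap2s1, at -0.67 ± 0.07 (edgeR, adjusted p = 0.0045), and Ap2a1, at -0.62 ± 0.06 (edgeR, adjusted p = 0.0043), fell most, and were at -0.45 and -0.34 after correction. Picalm, a clathrin assembly protein, had the largest rise of this list at 0.39 ± 0.06 (edgeR, adjusted p = 0.0075) and was at -0.06 after correction over all annotated transcripts.

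**Figure D4:**
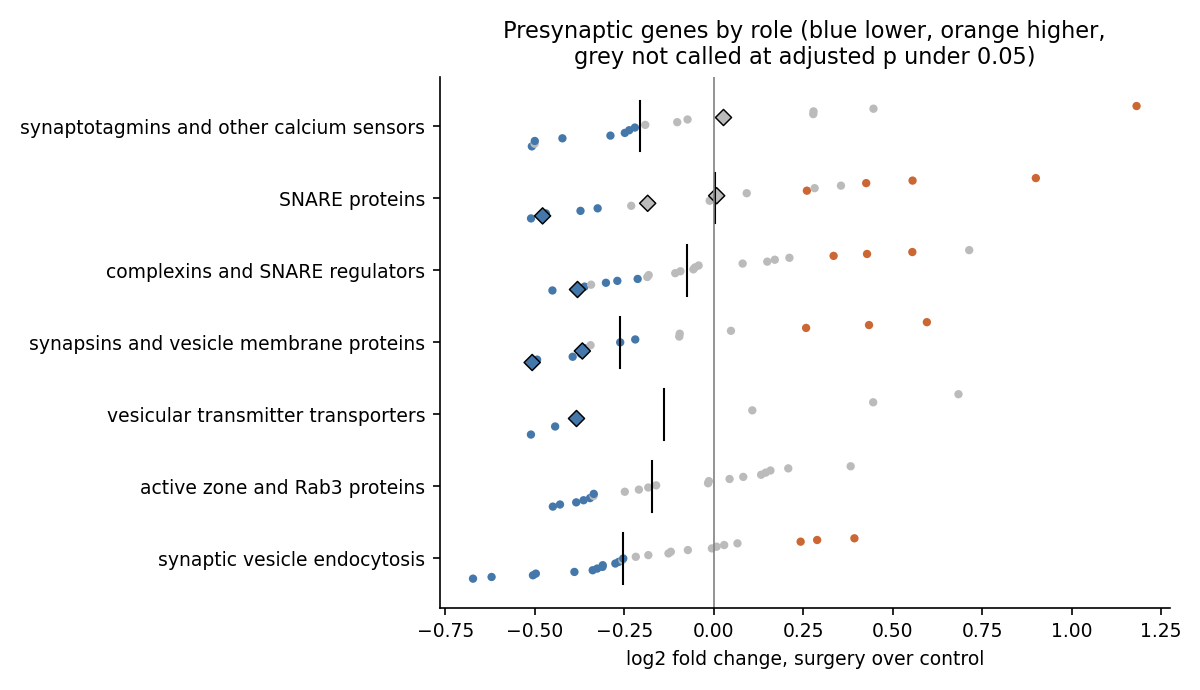
Log2 fold change (surgery over control) of the tested presynaptic genes in 7 lists by role, with 1 point per gene, diamonds for the 8 genes, a black line at each list's median, and color for the call at an adjusted p under 0.05 (blue lower, orange higher, grey not called). Lower calls outnumber higher ones in each list, at 5 and 4 for the SNARE proteins, and Syt4 lies furthest right at 1.18.

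Library totals ran from 15763432 to 18573386 counts. Marker genes for 10 cell types and regions were detected in every library, with 0 markers at a count of 0. Summed markers of neurons reached 4527 and 4465 CPM in control mice against 5265 and 5530 CPM in surgery mice, with 2 of 8 lower and 3 higher. Those of hippocampal excitatory neurons were 7015 and 6779 CPM against 6188 and 6026 CPM, with 3 of 8 lower and 2 higher. The sum of the excitatory markers was lower, but 5 of the 8 had a log2 fold change above 0, with a median of 0.12, and the part of these markers in the result was not tested. Choroid plexus markers set 1 control mouse apart, at 132 CPM against 5469 CPM in the other control mouse and 2052 and 3490 CPM in the surgery mice. Oligodendrocyte markers summed to 4201 CPM in 1 surgery mouse and to between 5647 and 6532 CPM in the other 3 mice. Thalamus markers summed to 186 and 176 CPM in control mice and 234 and 221 CPM in surgery mice, with 8 of 8 above 0 on the log2 fold change scale and 1 called higher. Striatum markers summed to 188 and 234 CPM in control mice and 173 and 179 CPM in surgery mice, with 1 of 8 called lower. Astrocyte markers summed to 4648 and 4600 CPM against 4971 and 4738 CPM, with 2 of 8 lower and 3 higher. Endothelial markers summed to 362 CPM in 1 surgery mouse and to between 248 and 264 CPM in the other 3 mice, with 2 of 8 called higher. Inhibitory neuron markers summed to 794 CPM in 1 surgery mouse and to between 939 and 975 CPM in the other 3, with 2 of 7 lower and 2 higher, and microglia markers to between 300.3 and 312 CPM in all 4 mice, with 1 of 8 higher. The part of these markers in the result was not tested. The 5 genes were called lower with each mouse left out in turn, that control mouse included, in fits where the lone mouse left in a group is assumed to vary like the pair in the other.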

How the data were processed

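Hippocampal RNA of 2 control and 2 surgery mice was enriched with oligo(dT), sequenced as paired-end reads and mapped to mm10 with HISAT, and the authors deposited raw read counts per gene. The submitters' processing notes also list HISAT2 2.1.0, TopHat2, Bowtie2 2.2.3 and HTSeq 0.6.0. The authors' columns of fold changes and p-values were not used. The methods give 2 mice in each group, and each of the 2 libraries of a group is taken here as 1 mouse. No pair of replicates agreed within sampling noise (chi-square per degree of freedom 13.4 and 8.45).

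Counts were tested in R 4.3.3 with edgeR 4.0.16 (filterByExpr at a minimum count of 10, TMM, quasi-likelihood F test, Benjamini-Hochberg adjustment over 17144 genes), and each SE is the size of the log2 change over the root of its F. DESeq2 1.42.0 was an alternative. Other alternatives were other scalings, no filter, no fold threshold, the replicate number as a block, leaving out each mouse, and offsets for transcript length and GC content fitted with mgcv 1.9.3 (basis size 8). The offsets were first computed over all annotated transcripts of GENCODE M21. The version over protein-coding transcripts was added after those results had been seen, because a transcript not annotated as protein-coding lengthened Snap25. The procedures were tested on simulated data.

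The 8 genes, the lists and the motifs were chosen with earlier results of these data known. Named genes were the 8, their direct paralogs, the largest rise and fall in each list among genes past the threshold, and the 5 genes of most similar profile, with Ap2a1 named as a DEG after its value was seen. Sequences are from RefSeq. Some named genes are not reported here.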

Additional observations from a re-analysis of the deposited data

How the results depend on the processing

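Other scalings (DESeq2 size factors, library totals), no filter and leaving out each mouse (the lone mouse of a group then being assumed to vary like the other group) kept the 5 of the 8 genes as lower, and DESeq2 and the replicate block gave 6. Without the fold threshold, lower and higher calls were 5 and 0 of the 8 genes, 42 and 14 of the wider lists and 2199 and 2250 of all genes. Without the replicate block, the corrections for length and GC content removed most calls. Over all annotated transcripts, the planned version, 1 of the 8 genes was lower, 5 and 1 genes of the wider lists were lower and higher (DEGs 1 and 1), and 189 and 101 of all genes (DEGs 61 and 68). Over coding transcripts, added after seeing the data, these were 0 of the 8 genes, 3 and 1 of the wider lists (DEGs 0 and 1), and 139 and 97 of all genes (DEGs 45 and 72). The cause was not tested.

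The labels give no shared batch or day for the replicate numbers, and with 2 pairs the positive correlation of their deviations (0.224 over 17144 genes) does not settle whether they pair the mice. The block gave 2626 lower and 2655 higher genes over all genes, and Vamp2 passed (edgeR with the block, adjusted p = 0.033), as did Cplx2 (adjusted p = 0.048). The block with the correction over all annotated transcripts called 4 of the 8 genes lower (Syt1, Snap25, Syp and Slc17a7) with 30 lower and 2 higher calls (DEGs 1 and 1) in the wider lists, and 1581 lower and 750 higher calls (DEGs 137 and 243) over all genes. The block with the correction over coding transcripts gave 3 of the 8 genes lower (Syt1, Snap25 and Syp), 33 lower and 1 higher calls (DEGs 0 and 1) in the wider lists, and 1581 lower and 773 higher calls (DEGs 128 and 261) over all genes.

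With library totals only, the wider lists had 1 lower and 5 higher DEGs, and all genes 224 lower DEGs. Without the filter, 1350 genes were lower and 1315 higher. Leaving out 1 mouse gave 25 to 41 lower and 9 to 11 higher genes of the wider lists, with 2 to 6 lower and 3 to 4 higher DEGs. Over all genes it gave 1207 to 2080 lower and 1201 to 2025 higher genes, with 254 to 614 lower and 754 to 1312 higher DEGs. The fewest lower calls in the wider lists, 25, came without surgery mouse 2. Without control mouse 2, 1207 and 1201 genes were called over all genes, with 254 and 754 DEGs. Lower DEGs numbered 614 and, in the wider lists, 6 without surgery mouse 1.

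Each alternative was followed gene by gene for the 8 genes, of which Syt1, Snap25 and Vamp2 changed sign. Syt1 was at -0.31 over all annotated transcripts, with and without the block, and at -0.24 over coding ones in both. Snap25 was at -0.00056 with DESeq2 size factors, -0.00057 with the DESeq2 test and -0.0024 without the filter. It was at -0.49 with and without the block over all annotated transcripts and at -0.23 over coding ones in both, and leaving out 1 mouse gave -0.067 to 0.072. Vamp2 was at 0.054 with the correction over all annotated transcripts, with and without the block. With 2 mice a group, small changes such as that of Vamp2 lie at the limit of the test.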

Other observations

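Outside the presynaptic lists, the protein-coding genes nearest to the median profile of the 8 genes over the 4 mice, of 10033 with a mean of at least 10 CPM, included Slc25a23, Xpnpep1, Srf and Dxo. Their root mean square differences from that profile ran from 0.0080 to 0.0116 on the log2 scale. Srf, a transcription factor of activity-regulated genes, was at a log2 fold change of -0.38 ± 0.07 (edgeR, adjusted p = 0.0099) and at -0.03 after the correction for length and GC content over all annotated transcripts. These genes were selected for this likeness, which is a description.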
